A study of Mus musculus with 58 samples.

Results

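The cytochrome P450 enzymes of the CYP2, CYP3 and CYP4 families were followed in lung, liver and forestomach of mice given indeno(1,2,3-cd)pyrene (IP), a polycyclic aromatic hydrocarbon. The members were all genes whose symbol begins with Cyp2, Cyp3 or Cyp4 and a further letter, without pseudogenes. The array held a probe for 72 of the 77 such genes in RefSeq, among 20678 named genes in all, and the 72 fall into 20 subfamilies. The largest were Cyp2c with 13 members, Cyp4f with 9, and Cyp2d, Cyp3a and Cyp4a with 8 each. Cyp2a5, Cyp2c40, Cyp2c69, Cyp2j12 and Cyp3a41a matched no probe.

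All animals were male Muta™Mouse of about 13 weeks, a transgenic strain that carries a bacterial reporter gene for scoring mutations. Vehicle mice received olive oil by gavage, and the 3 dosed groups received IP dissolved in it at a low dose (12.5 mg/kg-bw/day), a middle dose (25) or a high dose (50), for 28 days in each case. Tissue was taken 72 hours after the last dose. RNA of 1 tissue of 1 mouse, labelled with Cy5, shared each of the 58 arrays with Cy3-labelled universal reference RNA made from cultured mouse cell lines. Lung had 5 mice in every group, whereas liver and forestomach had 4 vehicle mice and 5 mice at each dose. Vehicle mice were numbered 1 to 5 (mouse 4 only in lung), and mice 6 to 10, 11 to 15 and 16 to 20 received the low, middle and high dose.

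P450 enzymes are haem proteins of the endoplasmic reticulum that insert oxygen into their substrates, with electrons passed on by P450 reductase and cytochrome b5. CYP2 and CYP3 enzymes handle most drugs, many plant and industrial chemicals, and steroids, while CYP4 enzymes hydroxylate fatty acids and related lipids at the end of the chain. Liver carries most of this activity, lung club cells are rich in a few members, and the nuclear receptors CAR, PXR and PPARα switch on Cyp2b, Cyp3a and Cyp4a genes. The CYP1 enzymes, which are the classical targets of the aryl hydrocarbon receptor, do not belong to these families.

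Promoters of 58 of the 72 members were matched in RefSeq (GRCm38.p6). The 250 bases before the start of 4 members are shown, each on the strand of its gene, because these genes stand for the tissue differences described below: Cyp4b1 for lung, Cyp3a25 for liver, and Cyp2s1 and Cyp2c66 for the forestomach samples. Of these, Cyp2c66 was high only in forestomach samples that also held high glandular stomach markers. Capitals mark AGGTCA and its reverse complement TGACCT, the core letters read by many nuclear receptors.
Cyp4b1, chr4:115647722-115647971, minus strand: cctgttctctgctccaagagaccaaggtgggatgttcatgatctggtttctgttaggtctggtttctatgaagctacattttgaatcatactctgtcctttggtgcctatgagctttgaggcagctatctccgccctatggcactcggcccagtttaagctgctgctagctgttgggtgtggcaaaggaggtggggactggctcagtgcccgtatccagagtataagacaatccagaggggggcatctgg
Cyp3a25, chr5:146009619-146009868, minus strand: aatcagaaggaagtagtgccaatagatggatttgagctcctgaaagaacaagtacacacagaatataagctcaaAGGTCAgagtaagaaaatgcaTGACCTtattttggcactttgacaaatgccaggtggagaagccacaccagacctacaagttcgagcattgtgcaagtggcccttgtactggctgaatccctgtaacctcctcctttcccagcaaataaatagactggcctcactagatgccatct
Cyp2s1, chr7:25816526-25816775, minus strand: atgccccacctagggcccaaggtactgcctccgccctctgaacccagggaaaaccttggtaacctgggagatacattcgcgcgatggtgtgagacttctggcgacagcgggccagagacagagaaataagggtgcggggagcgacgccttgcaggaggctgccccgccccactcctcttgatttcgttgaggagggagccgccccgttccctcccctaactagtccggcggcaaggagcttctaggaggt
Cyp2c66, chr19:39113648-39113897, plus strand: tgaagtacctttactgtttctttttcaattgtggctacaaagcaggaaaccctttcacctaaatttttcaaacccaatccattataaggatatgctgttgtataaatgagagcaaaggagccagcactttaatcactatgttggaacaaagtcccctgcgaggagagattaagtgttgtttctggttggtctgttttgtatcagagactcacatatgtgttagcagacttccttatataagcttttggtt
AGGTCA, searched on both strands, stood in 16 of 58 member promoters (27.6%) and in 13.8% of 27025 promoters of the same length. Cyp3a25, Cyp3a57 and Cyp3a59 held it 2 times each. GCGTG (or CACGC), the core of the site of the aryl hydrocarbon receptor, stood in 10 of 58 (17.2%) against 28.2%, and GTTAAT (or ATTAAC), a core read by HNF1, in 6 of 58 (10.3%) against 6.52%. A match is only a description of the letters.

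Levels are given as log2 ratios of the tissue signal (Cy5) to the reference signal (Cy3), after loess within each array and without background subtraction. A ratio near 0 can therefore mean that both channels lay at background, and ratios of different genes are not comparable as amounts of RNA. Each gene is represented by its brightest probe. Differences were called in limma at a Benjamini-Hochberg adjusted p of at most 0.05, over all probes, and a fold change of at least 1.5.

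Some arrays stood apart before any comparison. In 4 lung arrays (mice 3, 8, 13 and 18), 5 liver arrays (mice 9, 13, 15, 16 and 20) and 3 forestomach arrays (mice 8, 13 and 18) the median Cy5 signal was over 1.3 times that of the tissue, namely 275 to 368.5 against 101 to 133 in lung, 126 to 246.5 against 76 to 88 in liver and 205 to 253.5 against 86 to 111 in forestomach. The share of probes well above background on an array ran from 53.0 to 90.7% in lung, 37.6 to 78.9% in liver and 43.0 to 85.9% in forestomach. Liver arrays lay on 3 slides of their own and were read by a newer scanner software, so tissue and slide cannot be told apart for liver. Apart from 2 liver arrays each dose also had its own array column, and dose therefore cannot be told apart from column. The tissues matched their labels in vehicle mice, but some samples also held markers of other tissues. High glandular stomach markers were found in 3 of 4 forestomach samples, and all 9 were higher in forestomach than in liver and in lung. Vehicle lungs also held heart muscle markers (means of 2.05 to 4.48) and fat cell markers (1.15 to 3.81). Of these, 5 of 6 and 7 of 8 were higher in lung than in liver, and their part was not tested. All 8 hepatocyte markers were higher in liver than in lung and in forestomach, all 8 alveolar type 2, all 4 alveolar type 1, all 5 club cell and 6 of 7 ciliated cell markers were higher in lung than in liver, and 8 of 9 squamous epithelium markers were higher in forestomach than in liver.

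In vehicle mice the families split by tissue, with most members highest in liver. The Cy5 signal was well above background in every vehicle mouse for 53 of 72 members in liver (73.61%, against 53.43% of all genes), for 27 in lung (37.5% against 67.18%) and for 24 in forestomach (33.33% against 60.03%). Of the 72, 26 met this only in liver, 18 in all 3 tissues and 15 in none. The 18 detected in all tissues were Cyp2b10, Cyp2c37, Cyp2c70, Cyp2d11, Cyp2f2, Cyp2j6, Cyp2j8, Cyp2j9, Cyp2j13, Cyp2r1, Cyp2s1, Cyp4a10, Cyp4b1, Cyp4f13, Cyp4f16, Cyp4f17, Cyp4f18 and Cyp4v3. The 26 of liver alone included 6 Cyp3a members, Cyp2c29, Cyp2c54 and Cyp4f14. Cyp2b9 met it in lung alone and Cyp2c66 in forestomach alone. In whole tissue, fewer cells of a type and less RNA per cell cannot be told apart.

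Liver stood above lung for 47 of the 72 members (65.3%), whereas 16.5% of all genes were called higher in liver, and above forestomach for 49 (68.1%, against 15.4%). In the other direction only 4 members (5.56%) were higher in lung than in liver and 5 (6.94%) higher in forestomach than in liver, against 25% and 21.7% of all genes. The median difference of the members was −3.04 for lung minus liver and −3.07 for forestomach minus liver on the log2 scale. Lung and forestomach were closer to each other, with 10 members (13.9%) higher in lung and 13 (18.1%) higher in forestomach, against 17.1% and 14.6% of all genes, and a median difference of −0.11. In the plot of vehicle levels, the liver points therefore lie far to the right of the other tissues for most of Cyp2c, Cyp2d, Cyp3a and Cyp4a.

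**Figure D1:**
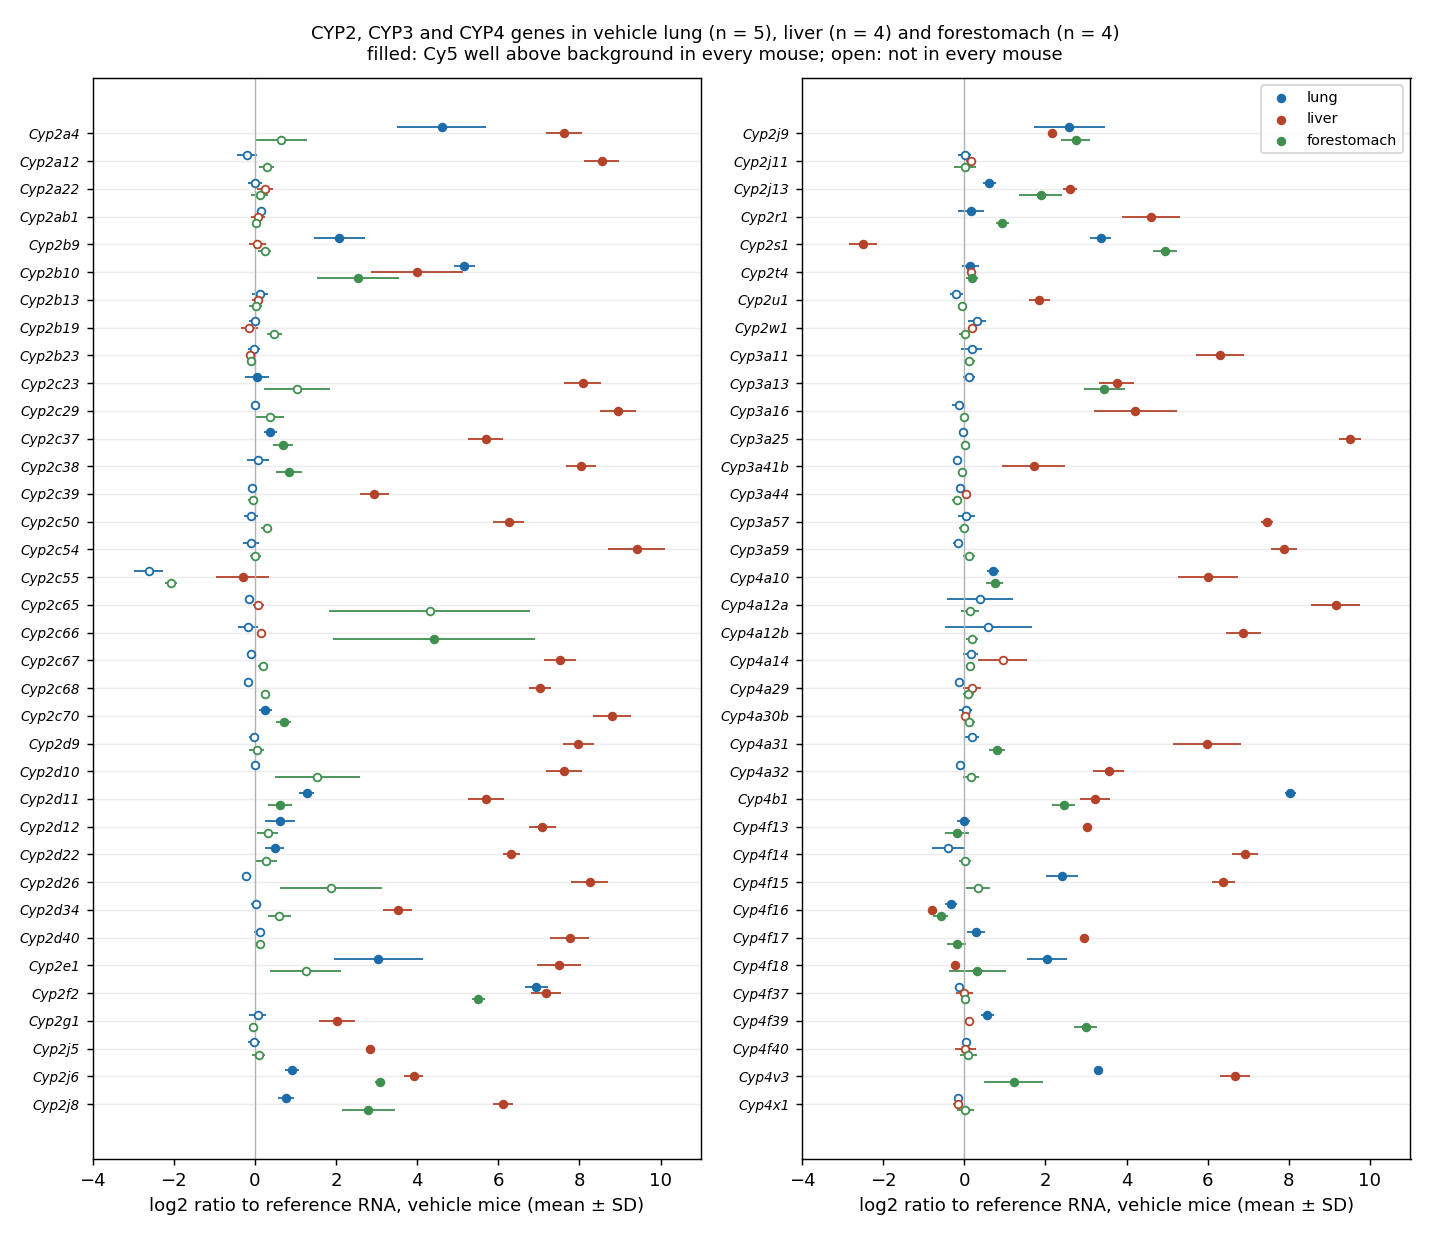
Mean log2(Cy5/Cy3) ± SD over vehicle mice of each of the 72 members, by tissue (lung n = 5, liver n = 4, forestomach n = 4), grouped by subfamily; filled points are members well above background in every vehicle mouse. Liver is highest for 46 members called against both other tissues, while Cyp4b1 (8.04 in lung) and Cyp2s1 (4.95 in forestomach) run the other way.

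The subfamilies differed in how strictly they kept to liver. All 8 Cyp2d members were higher in liver than in lung and in forestomach, with median differences of −7.04 and −6.23 (lung or forestomach minus liver). Of the 13 Cyp2c members, 11 were higher in liver than in lung (median −7.20) and 11 higher than in forestomach (median −6.78). For Cyp3a, which clears steroids and many drugs, 7 of 8 were higher in liver than in lung (median −5.24), and for the fatty acid hydroxylases of Cyp4a, 6 of 8 (median −4.47). Cyp4f was mixed, with 4 of 9 higher in liver and 1 higher in lung (median −0.12), and Cyp2b had none higher in liver than in lung and 1 higher in lung (median 0.14). Members were also counted by their clusters in the genome, with genes less than 1 Mb apart taken as neighbours. All 8 Cyp2d neighbours on chromosome 15 were highest in liver, and so were 10 of the 12 Cyp2c neighbours on chromosome 19, whose other members, Cyp2c65 and Cyp2c66, were highest in forestomach. Both were high only in the forestomach samples with high glandular stomach markers, as described below. The 12 genes of the Cyp2a, Cyp2b, Cyp2f, Cyp2g, Cyp2s and Cyp2t cluster on chromosome 7 held 3 members highest in liver, 1 in lung (Cyp2b9) and 1 in forestomach (Cyp2s1).

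The widest differences of the ratio between liver and lung were those of Cyp3a25, a mouse relative of the human drug-metabolizing enzyme CYP3A4, and Cyp2c54, and they were nearly equal. The log2 ratios of Cyp3a25 in the liver of vehicle mice 1, 2, 3 and 5 were 9.89, 9.43, 9.24 and 9.45, and in lung of mice 1 to 5 they were 0.10, −0.18, 0.04, 0.01 and −0.07. Liver was high in every mouse, and lung lay at the level of the reference with the probe well above background in none of the 5 mice. The lung minus liver difference was −9.52 (SE 0.11, adjusted p = 5.66e-17 in limma). Where a probe was well above background in no mouse of the lower group, the fold is a lower bound on the Cy5 channel alone, against the dimmest signal that counts as above background, and is given only where it is under the fold of the ratios. For Cyp3a25 it was at least 429-fold against lung and at least 351-fold against forestomach. Cyp2c54 reached 9.84, 9.78, 8.38 and 9.65 in liver, with mouse 3 well below the others, differed by −9.51 (SE 0.23) for lung minus liver, and was at least 690-fold above lung and at least 568-fold above forestomach. Cyp2c29, a mouse arachidonic acid epoxygenase (8.95 ± 0.45, SD, n = 4), Cyp4a12a, the male-type 20-HETE synthase of mouse (9.15 ± 0.61), and Cyp2a12 (8.55 ± 0.42) completed the 5 widest gaps, with lung minus liver differences of −8.94, −8.76 and −8.73 and forestomach minus liver differences of −8.57, −9.02 and −8.25. These 3 were well above background in 1, 3 and 2 of 5 lungs and in 2, 1 and 1 of 4 forestomachs, so that these differences and their order rest on signals at or near background on the low side.

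Cyp4b1 and Cyp2s1 were the clearest exceptions to the liver pattern. Cyp4b1, which activates 4-ipomeanol and aromatic amines in lung, read 8.07, 8.24, 7.99, 7.86 and 8.03 in lung of vehicle mice 1 to 5, 2.82, 3.69, 3.32 and 3.04 in liver, and 2.50, 2.62, 2.04 and 2.64 in forestomach. All lung values lay above all others, by 28.24-fold over liver (4.82, SE 0.16, adjusted p = 1.01e-12 in limma) and 48.14-fold over forestomach. Cyp2s1, an epithelial enzyme that oxidizes retinoids and lipid peroxides, read 4.55, 5.12, 5.19 and 4.93 in forestomach, 3.52, 2.97, 3.48, 3.57 and 3.25 in lung and −2.47, −2.84, −2.04 and −2.63 in liver. Every forestomach value lay above every lung value and every lung value above every liver value, with forestomach 174-fold and lung 57.88-fold above liver and forestomach 3.005-fold above lung. The other members higher in lung than in liver were Cyp4f18, a leukotriene B4 hydroxylase of neutrophils (4.796-fold), and Cyp2b9 (2.02, SE 0.24, on the log2 scale), which was well above background in 0 of 4 livers.

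Members known from lung club cells were shared between tissues to different degrees. Cyp2f2, which activates naphthalene in club cells, was 6.94 ± 0.27 in lung (n = 5) and 7.18 ± 0.37 in liver (n = 4), a difference that did not pass (adjusted p = 0.305 in limma), and 5.50 ± 0.16 in forestomach. Lung stood 2.708-fold and liver 3.19-fold above forestomach. For Cyp2b10, the best known CAR target, lung values were 4.86, 5.15, 5.06, 5.16 and 5.57, liver values 3.06, 5.40, 4.41 and 3.12 and forestomach values 1.17, 3.16, 2.45 and 3.43. Lung was tight and liver wide, so that the lung and liver ranges overlapped (adjusted p = 0.0621), while lung was 6.1-fold and liver 2.727-fold above forestomach (adjusted p = 0.0336 for the latter). Cyp2a4, a steroid 15α-hydroxylase, was 15.54-fold higher in lung than in forestomach (well above background in 3 of 4 forestomachs), with lung values from 3.27 in mouse 2 to 6.21 in mouse 5. Cyp4v3 (4.266-fold) and Cyp4f15 (4.195-fold, well above background in 1 of 4 forestomachs) were the other members with the widest lung over forestomach gaps.

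In forestomach, 5 members were higher than in liver: Cyp2s1, Cyp2c66, Cyp2c65, Cyp4f39 and Cyp2b19. Cyp4f39, which makes the ultra-long hydroxy fatty acids of the skin barrier, read 2.89, 2.88, 2.80 and 3.42 in the 4 vehicle mice. It differed from liver, where it was well above background in 0 of 4 mice, by 2.88 (SE 0.13) and was 5.38-fold above lung. Cyp3a13, a Cyp3a also found in the gut, was 3.45 ± 0.51 in forestomach and 3.76 ± 0.44 in liver (adjusted p = 0.389) and 10.12-fold above lung (well above background in 3 of 5 lungs), and Cyp2j6 was 4.479-fold above lung. Cyp2b19, a keratinocyte epoxygenase, lay near background and passed narrowly (0.62, SE 0.12, at least 1.16-fold). Its difference was 0.54 without liver mouse 2, and 0.58 and 0.56 without forestomach mice 2 and 5, which is under the fold threshold.

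Cyp2c65 and Cyp2c66, epoxygenases of the gut lining, separated the forestomach mice. Vehicle mice 1, 2, 3 and 5 read 0.61, 5.64, 5.50 and 5.47 for Cyp2c65 and 0.78, 6.08, 4.81 and 5.98 for Cyp2c66. Mouse 1 lay near the reference and the other mice were high. With all 4 mice the forestomach minus liver difference was 4.22 for Cyp2c65 (SE 0.79, adjusted p = 0.000446) and 4.27 for Cyp2c66 (SE 0.80), and without mouse 1 it was 5.45 and 5.48. Neither was well above background in any of the 4 livers. The mean of 9 glandular stomach markers (Atp4a, Atp4b, Cblif, Pgc, Gkn1, Gkn2, Tff1, Tff2 and Muc5ac) moved with these values, at 0.56 in mouse 1 and 6.44 to 6.54 in mice 2, 3 and 5. The glandular stomach adjoins the squamous forestomach in the mouse.

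Over all 19 forestomach mice the glandular markers fell into separate ranges, 5.08 to 6.67 in 10 mice and 0.56 to 2.03 in 9. The 10 were 3 of 4 vehicle mice, 2 of 5 at the low, 2 of 5 at the middle and 3 of 5 at the high dose. Between these mice 5 members did not overlap (6.94%, against 2.22% of all genes): Cyp2c65 at 3.51 to 5.89 against 0.31 to 0.89, Cyp2c66 at 3.69 to 7.04 against 0.39 to 0.98, Cyp2b10 at 1.93 to 3.43 against 1.13 to 1.77, Cyp2c23 at 0.56 to 3.11 against −0.16 to 0.20, and Cyp4f18 at 0.07 to 1.85 against −0.73 to 0.04. Cyp2s1 spanned nearly the same range in both (4.67 to 5.42 against 4.55 to 5.48). Cyp2e1, the ethanol-inducible enzyme, was highest in forestomach of mice 16 (5.31), 18 (4.44) and 13 (4.09), and the mean of 8 fat cell markers in these mice was 5.199, 4.539 and 1.298. Mouse 13 also had the highest hepatocyte marker mean of the forestomach samples (3.41), together with 1.89 for Cyp3a25, 1.51 for Cyp2a12 and 1.98 for Cyp2c29. The part of other tissue in these samples was not tested.

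**Figure D2:**
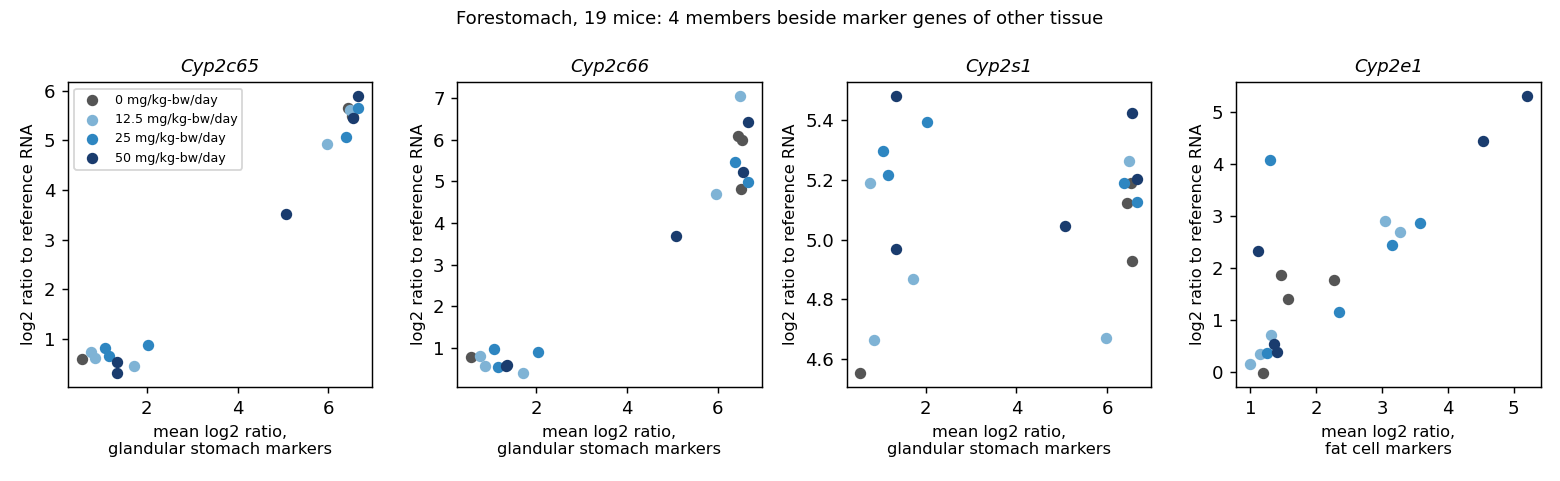
Log2(Cy5/Cy3) of Cyp2c65, Cyp2c66 and Cyp2s1 against the mean of 9 glandular stomach markers, and of Cyp2e1 against the mean of 8 fat cell markers, in the 19 forestomach mice; each point is 1 mouse, coloured by dose of IP. Cyp2c65 and Cyp2c66 lie below 1 in the 9 mice with low glandular markers and above 3.5 in the other 10, whatever the dose, whereas Cyp2s1 keeps to 4.55 to 5.48 throughout.

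Several members also moved with the brightness of the array, in shares close to or below those of all genes. On the lung arrays with a high Cy5 median, Cyp2j9 read 1.04 to 1.63 against 2.07 to 3.99 on the others, and in forestomach 1.04 to 1.84 against 1.95 to 3.78. In liver, Cyp2j5, an epoxygenase of liver and kidney, read 1.24 to 2.25 against 2.73 to 3.37, and Cyp2j11 read 0.78 to 1.73 against −0.26 to 0.37. Members without overlap numbered 3 in lung (4.17%, against 7.95% of all genes), 8 in liver (11.1% against 11%) and 1 in forestomach (1.39% against 2.32%). None of the 5 bright liver arrays was from a vehicle mouse.

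**Figure D3:**
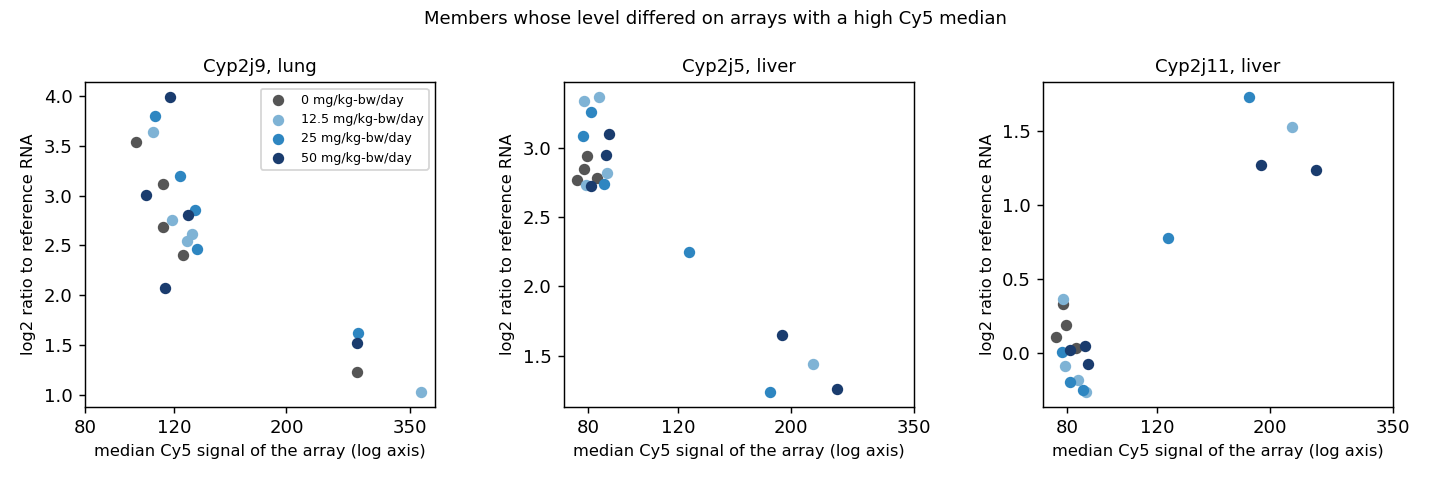
Log2(Cy5/Cy3) of Cyp2j9 in lung and of Cyp2j5 and Cyp2j11 in liver against the median Cy5 signal of the array (log axis, scanner units), 1 point per mouse, coloured by dose of IP. The bright arrays lie apart from the rest in each panel, lower for Cyp2j9 and Cyp2j5 and higher for Cyp2j11.

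Liver slide 7, with 5 arrays (mice 3, 8, 13, 18 and 19), stood apart in several Cyp2c and Cyp2d members. Its hepatocyte marker means were 7.70 to 7.90, against 8.53 to 8.86 on slide 6 and 8.16 to 8.82 on slide 8. On slide 7, 8 members lay below all arrays of the other slides (11.1%, against 0.47% of genes lying apart in either direction) and none above: Cyp2c50, Cyp2c54, Cyp2c67, Cyp2c68, Cyp2c70, Cyp2d10, Cyp2d11 and Cyp2d26. Cyp2d26 read 7.53 to 7.88 on slide 7 and 8.15 to 8.68 elsewhere. Of the 5 members with the widest liver gaps, Cyp3a25, Cyp2c29, Cyp4a12a and Cyp2a12 overlapped the other slides. For Cyp2c70 the mean difference of −0.78 was made of −0.08 in the Cy5 channel and 0.70 in the Cy3 channel, and for Cyp2d26 the −0.79 was made of −0.08 and 0.72. The reference channel thus carried most of the gap in these members. Slide 7 held 1 of 4 vehicle mice, 1 of 5 mice each at the low and middle dose and 2 of 5 at the high dose.

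No member passed the thresholds at any dose in any tissue. Among all genes, limma called 0% (0 genes), 0.0145% (3) and 0.145% (30) in lung at the low, middle and high dose, and 0% (0 genes) in liver and forestomach at each dose. At an unadjusted p under 0.05, 0, 3 and 2 of the 72 members passed in lung, while the shares of all genes were 5.28%, 9.45% and 12.5%. In liver 2, 8 and 3 members passed (2.78, 11.1 and 4.17%), against 2.76%, 4.77% and 8.37% of all genes, and in forestomach 2, 5 and 2 (2.78, 6.94 and 2.78%), against 4.49%, 3.96% and 4.2%. The smallest adjusted p of a member was 0.557 in lung, 0.718 in liver and 0.977 in forestomach. Each lung slide held 1 mouse of every group, and with slide as a block 4, 6 and 11 members had an unadjusted p under 0.05 in lung, against 10.3%, 16.6% and 20.6% of all genes. In that fit 0 (0%), 38 (0.184%) and 107 (0.517%) of all genes passed both thresholds in lung and 0 members did, the smallest adjusted p of a member being 0.488, 0.06 and 0.105. The same block gave 2, 7 and 6 members with an unadjusted p under 0.05 in liver (against 2.98%, 4.91% and 7.97% of all genes) and 1, 9 and 1 in forestomach (against 4.51%, 4.64% and 4.67%). Median standard errors of a member's log2 difference were 0.10 in lung, 0.24 in liver and 0.18 in forestomach. Only 27 of 72 members were well above background in every vehicle lung, against 53 in liver. The small median in lung therefore does not show that expressed members were resolved best there. Residual SDs within the lung groups reached 0.89 for Cyp2j9 and 0.80 for Cyp2a4, both detected in every lung. At the high dose the members' differences ran from −0.65 to 0.45 in lung, −0.60 to 0.71 in liver and −1.17 to 1.35 in forestomach. The values that follow are descriptions of the members at the ends of these ranges, and none of them passed.

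**Figure D4:**
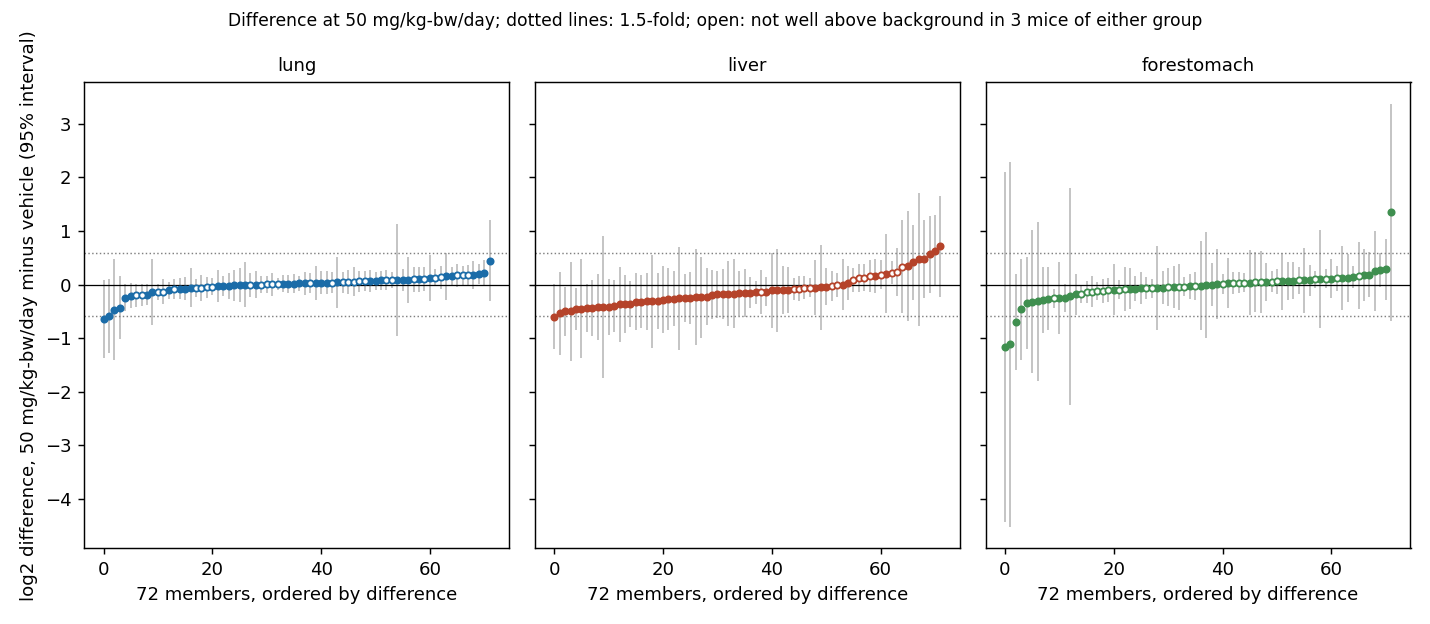
Log2 difference between the high dose (50 mg/kg-bw/day) and vehicle with its 95% interval for each of the 72 members, ordered by size within lung, liver and forestomach; dotted lines mark 1.5-fold, and open points are members well above background in fewer than 3 mice of both groups. No member passed in any tissue, and the median standard error is smallest in lung, where fewer members were detected than in liver.

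In lung the intervals of the members known from club cells included 0. The differences at the high dose were −0.06 (95% interval −0.42 to 0.30) for Cyp2f2, 0.09 (−0.34 to 0.52) for Cyp2b10 and −0.19 (−0.39 to 0.01) for Cyp4b1. The highest values were those of Cyp4f18 (0.45, SE 0.36), Cyp2j8 (0.23, SE 0.11), Cyp4f13 (0.19, SE 0.09), Cyp4f17 (0.18, SE 0.13) and Cyp2c70 (0.15, SE 0.08). Cyp4f13 read −0.23, 0.08, 0.05, 0.15 and −0.13 in vehicle mice, 0.09, 0.13, 0.20, 0.21 and 0.27 at the middle dose, and 0.00, 0.14, 0.15, 0.14 and 0.46 at the high dose. The dosed values overlapped the vehicle range at both doses (adjusted p = 0.756 and 0.557 in limma). Cyp4f17 read 0.14, 0.19, 0.56, 0.47 and 0.04 in vehicle mice and 0.74, 0.54, 0.72, 0.29 and 0.62 at the middle dose (0.30, SE 0.13, adjusted p = 0.676, or 0.06 with slide as a block). Cyp4f39 differed by 0.23 (SE 0.10) at the middle dose.

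The 9 Cyp4f members, hydroxylases of leukotrienes and long fatty acids, all had a positive difference in lung at the high dose, from 0.05 to 0.45 with a median of 0.15 against 0.01 for all genes. All 9 were also positive after normexp background correction and after median centring (median 0.23, against 0.12 for all genes), 8 of 9 with the scanner's log ratio, and 6 of 9 in the Cy5 channel alone (median 0.07). Only Cyp4f13 had an unadjusted p under 0.05 at the high dose, and with slide as a block Cyp4f17 and Cyp4f18 did too. At the low and middle dose 9 and 7 of the 9 were positive. The share of all genes with a positive difference was not counted. Cyp4f14, Cyp4f37 and Cyp4f40 were not well above background in every vehicle lung, and vehicle mouse 4 read −1.05 for Cyp4f14. Of the 10 members at the ends of the lung range, 5 had the same sign within all 5 slides. The 10 were picked by the size of these same differences, which favours equal signs. The share of all genes was not counted, so this is a description and no independent support. Cyp2j8, Cyp4f13 and Cyp4f17 read higher at the high dose than in the vehicle mouse of the slide, by 0.05 to 0.42, 0.06 to 0.31 and 0.05 to 0.46, and Cyp2j13 (−0.61 to −0.06) and Cyp4a12b (−2.49 to −0.02) read lower.

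The lowest lung values at the high dose belonged to Cyp2e1 (−0.65, SE 0.35), Cyp4a12b (−0.58, SE 0.33), Cyp2a4 (−0.47, SE 0.45), Cyp4a12a (−0.43, SE 0.28) and Cyp2j13 (−0.24, SE 0.12). Cyp4a12b read 0.10, 0.08, 0.09, 0.19 and 2.52 in vehicle mice 1 to 5, and mouse 5 was also the highest for Cyp2a4 (6.21). Without this mouse the differences of Cyp4a12b, Cyp2a4 and Cyp4a12a were −0.10, −0.07 and −0.08, and without vehicle mouse 2 that of Cyp2e1 was −0.27. Cyp2e1 read 3.02, 4.57, 2.23, 1.81 and 3.60 in vehicle mice and 2.77, 2.35, 1.88, 2.61 and 2.37 at the high dose, and the dosed range lay inside that of vehicle. The 8 fat cell markers averaged 1.15, 3.81, 1.82, 2.46 and 3.46 in the same vehicle mice and 0.82 to 2.00 at the high dose, and their part in the Cyp2e1 values was not tested.

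In liver the ratios of Cyp2e1 and of Cyp4a10, Cyp4a14 and Cyp4a31 were higher in many dosed mice, within a wide spread, while the Cyp4a subfamily was mixed. Of its 8 members 5, 5 and 4 had a positive difference at the low, middle and high dose (medians 0.09, 0.11 and 0.04), and Cyp4a12a and Cyp4a12b had negative ones at each dose, of −0.27 and −0.41 at the high dose. Cyp4a10 and Cyp4a31, PPARα-responsive fatty acid hydroxylases, had their largest difference at the middle dose. Cyp4a31 read 5.50, 7.17, 5.28 and 6.01 in vehicle mice and 6.59, 7.68, 6.49, 7.07 and 7.12 at the middle dose. The dosed mice lay together near the highest vehicle mouse and overlapped the vehicle range through it (1.00, SE 0.34, adjusted p = 0.904 in limma). Its other probes differed by 0.19 and 0.44. Cyp4a10 differed by 0.43, 0.87 and 0.41 at the low, middle and high dose (SE 0.34), with 1.37 and 0.69 at the middle dose on its other probes, and Cyp4a14, the most inducible of the Cyp4a genes, by 0.88, 0.89 and 0.47 (SE 0.59) from vehicle values of 0.63, 0.96, 1.79 and 0.40. For Cyp4a14 the dosed range of 0.48 to 3.69 covered most of the vehicle range.

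Cyp2e1 depended on the probe and on the channel. Its brighter probe read 7.40, 8.15, 6.83 and 7.61 in vehicle mice and 9.17, 7.75, 8.40, 8.95 and 9.14 at the low dose, and differed by 1.19, 1.18 and 0.71 at the 3 doses (SE 0.45, adjusted p = 1, 0.904 and 0.754 in limma). Most dosed mice were above the vehicle mice and some were within their range. The other probe differed by 0.03, 0.06 and −0.17. In the brighter probe the Cy5 channel alone, which holds the liver RNA, differed by −0.30, −0.12 and −0.16, and the Cy3 channel, which holds the same reference RNA on every array, by −1.49, −1.31 and −0.88. The Cy3 signal of this probe was 5310, 2316, 3348 and 2152 in vehicle mice and 571 to 2875 in dosed mice, with no spot saturated. In the scaled values of the channels alone, the difference of the ratio therefore lay in the reference channel. The Cy5 signal before scaling was 185643 to 314833 in vehicle mice and 219536 to 394364 in dosed mice. The part of the liver channel thus depends on the scaling.

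**Figure D5:**
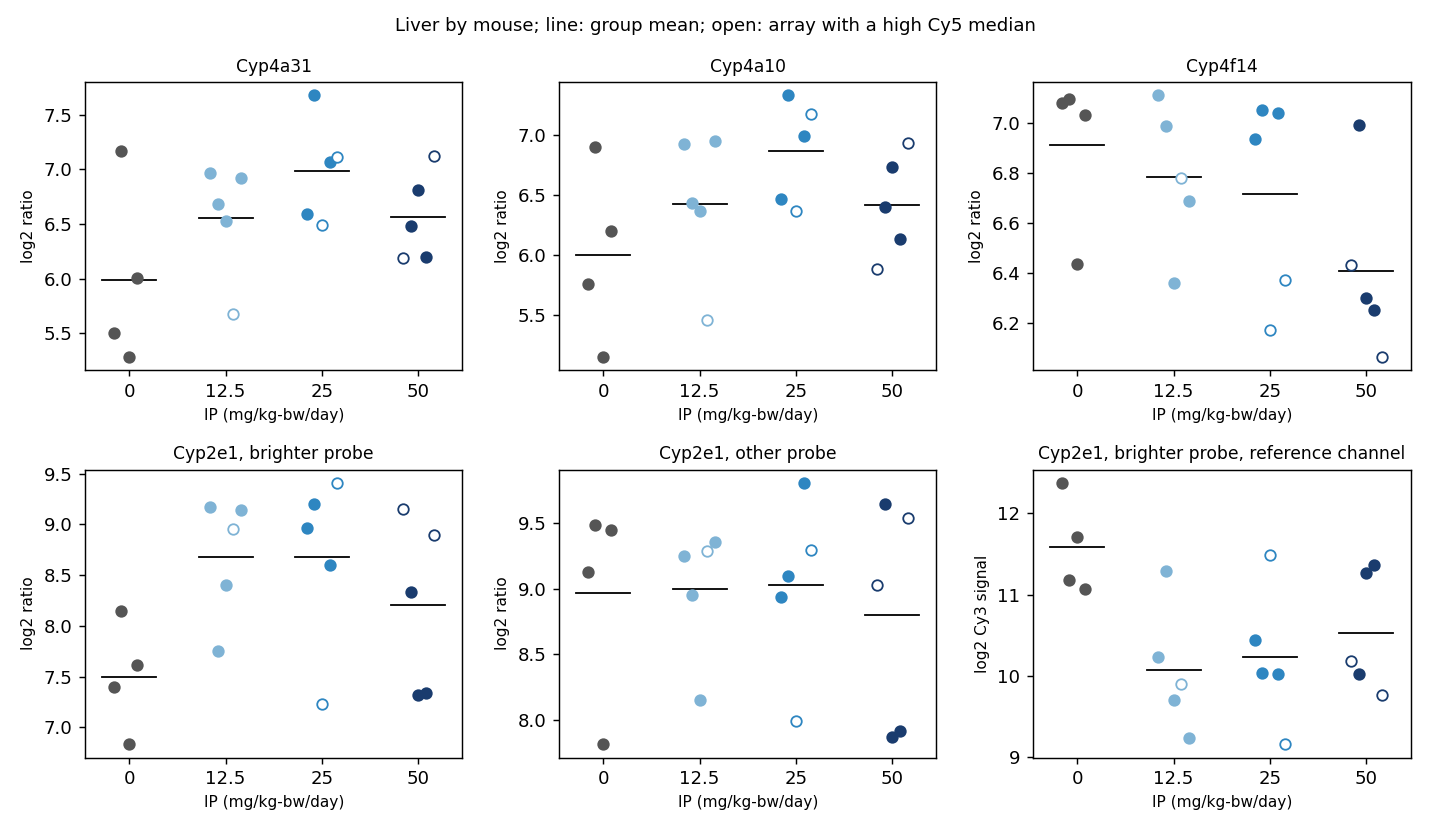
Values of Cyp4a31, Cyp4a10, Cyp4f14 and the brighter and other probe of Cyp2e1 as log2(Cy5/Cy3), and the log2 Cy3 signal of the brighter Cyp2e1 probe, in each liver mouse by dose; open points are arrays with a high Cy5 median. The Cyp2e1 ratio of the brighter probe is higher in most dosed mice while its Cy3 signal is lower, and the other probe shows no such step.

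Lower values in liver at the high dose were led by Cyp2d40 (−0.60, SE 0.29), Cyp3a11 (−0.54, SE 0.37), Cyp4f14 (−0.50, SE 0.22), Cyp2j5 (−0.50, SE 0.44) and Cyp2s1 (−0.46, SE 0.19). Cyp4f14, a leukotriene B4 and vitamin E hydroxylase, read 7.08, 7.10, 6.44 and 7.03 in vehicle mice and 6.43, 6.99, 6.30, 6.25 and 6.06 at the high dose. The dosed mice lay mostly below vehicle but overlapped it through mouse 3 of slide 7 (adjusted p = 0.718 in limma). In the Cy5 channel alone Cyp4f14 differed by 0.29, with 0.79 in Cy3, and after median centring of the arrays by 0.08. Cyp2s1 read −2.47, −2.84, −2.04 and −2.63 in vehicle mice and −3.02, −2.72, −2.92, −2.60 and −3.49 at the high dose. Here the Cy5 channel carried the difference (−0.47, against −0.01 in Cy3) and all 3 slides agreed in sign, but median centring turned it to 0.21. Cyp2j5 differed by 0.09 without the bright arrays, and Cyp3a11, the main PXR target of mouse liver, by 0.06 in the Cy5 channel alone.

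Across the families in liver, 54 of 72 members were lower at the high dose than in vehicle, with a median of −0.15 against −0.01 for all genes. All 8 Cyp2d members (median −0.34) and 12 of 13 Cyp2c members (median −0.18) were among them. With slide as a block the medians were −0.22 and −0.10, with 8 of 8 and 11 of 13 lower. These directions depended on the scaling. With median centring, which moved the median of all genes in liver to 0.28, 14 of 72 members and 1 of 8 Cyp2d members were lower. In the Cy5 channel alone 20 of 72 and 2 of 8 were lower, and without the bright arrays 39 of 72 and 8 of 8.

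Further liver members lay near background in vehicle mice. Cyp3a44 read 0.07, 0.15, −0.07 and −0.01 in vehicle mice, where it was well above background in none, 1.88, 0.65, 0.16, 0.19 and 0.73 at the middle dose and 0.31, 1.82, 0.68, 0.14 and 0.38 at the high dose. The difference was 0.69 at the middle dose, or 0.40 without mouse 11, and 0.63 at the high dose, or 0.34 without mouse 17. Single dosed mice reached 1.88 and 1.82, and every mouse at the middle dose lay above every vehicle mouse (adjusted p = 0.904 in limma). This held for 1 of 72 members in liver at that dose, and the share of all genes was not counted. The lowest mouse at the middle dose barely did so (0.158 in mouse 13, against 0.146 in vehicle mouse 2), and neither of these was well above background. Cyp2c39 differed by 0.48 (SE 0.35) at the high dose. At the middle dose Cyp2b9 differed by 0.53 (SE 0.21), or 0.30 without mouse 11, and Cyp2b13 by 0.34 (SE 0.14), and Cyp4x1 differed by 0.26, 0.21 and 0.22 over the doses, all from vehicle levels not well above background.

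In forestomach Cyp4b1 was chosen for description because its groups did not overlap at the middle dose. It read 2.50, 2.62, 2.04 and 2.64 in vehicle mice and 4.34, 3.00, 3.09, 3.59 and 2.75 at the middle dose. All 5 dosed mice lay above all vehicle mice (0.90, SE 0.36, adjusted p = 1 in limma). At this dose 2 of 72 members did not overlap vehicle, Cyp4b1 and Cyp4f37. The share of all genes was not counted, so this is only a description. At the high dose the values were 3.61, 2.73, 2.73, 2.17 and 2.28, which overlapped vehicle (0.25, SE 0.36), and with the fat cell marker mean as a covariate that difference was −0.04. Cyp2s1 read 4.55, 5.12, 5.19 and 4.93 in vehicle mice, 5.22, 5.30, 5.19, 5.39 and 5.13 at the middle dose and 4.97, 5.48, 5.04, 5.20 and 5.42 at the high dose. The dosed and vehicle values overlapped at both doses (0.30 and 0.28, SE 0.15). Without vehicle mouse 1 the differences were 0.16 and 0.14. Within the 4 slides with both groups the difference at the high dose was 0.23 to 0.41.

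The widest forestomach differences at the high dose were those of Cyp2e1 and of Cyp2c65, Cyp2c66 and Cyp2b10, the members described above beside the fat cell and glandular markers. Cyp2e1 differed by 1.35 (95% interval −0.69 to 3.38), Cyp2c65 by −1.17 (−4.43 to 2.10), Cyp2c66 by −1.12 (−4.53 to 2.30) and Cyp2b10 by −0.70 (−1.60 to 0.20). Leaving out single mice moved Cyp2c65 between −2.40 (vehicle mouse 1) and −0.46 (mouse 16), Cyp2c66 between −2.33 and −0.43 and Cyp2b10 between −1.16 and −0.40. Cyp2e1 was 0.67 without mouse 16. Cyp2j9 (−0.46, SE 0.45), which read lower on the bright arrays, was 0.10 in the Cy5 channel alone. Cyp4v3 (−0.35, SE 0.41), Cyp2c38 (0.29, SE 0.27) and Cyp2b19 (0.19, SE 0.20) completed the ends of the range. Near background, Cyp2b9 differed by −0.29, −0.26 and −0.26 over the doses (SE 0.08), from 0.35, 0.01, 0.35 and 0.27 in vehicle mice, where it was well above background in none, and Cyp4f37 by −0.23 (SE 0.07) at the middle dose, with all 5 mice below vehicle.

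A slope over the doses was called for no member. In lung 0.251% of all genes (52) had a trend at an adjusted p of at most 0.05, against 0% in liver and in forestomach. At an unadjusted p under 0.05 limma gave 5 members in lung (against 12.3% of all genes), namely Cyp2j8 and Cyp4f13 with positive and Cyp2d9, Cyp2j13 and Cyp2w1 with negative slopes, 2 in liver (8.15%), Cyp3a44 upward and Cyp4f14 downward, and 3 in forestomach (4.74%), Cyp2s1 upward and Cyp2c37 and Cyp4f37 downward. The smallest adjusted p among members was 0.481 in lung, 0.68 in liver and 1 in forestomach. The test of whether the difference at the high dose itself differed between tissues called no member either, with 0.0339% of all genes called for lung against liver, 0.00967% for forestomach against liver and 0.029% for lung against forestomach. Unadjusted, 3, 3 and 1 members had a p under 0.05 (against 7.71%, 6.85% and 3.45% of all genes). Cyp2s1 was among them, since its forestomach difference exceeded that in liver by 0.73 (SE 0.25, adjusted p = 0.736), and so was Cyp3a44, whose lung difference was lower than that in liver by −0.83 (SE 0.29, adjusted p = 0.53).

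Genes that serve or regulate the enzymes differed between vehicle tissues, and 0 of them passed the thresholds at any dose in any tissue in limma. Of the 6 redox partners 4 were higher in liver than in lung and 1 lower, the latter being Por, the P450 reductase (1.43 for lung minus liver, SE 0.26), while Cyb5a, cytochrome b5, was −2.10 (SE 0.10). Of 9 genes of haem supply 6 were higher in liver than in lung and 1 (Hmox1, which breaks haem down) lower. Of 14 nuclear receptors and factors 8 were higher in liver than in lung and 11 higher than in forestomach, among them the PXR gene Nr1i2 (−4.59 for lung minus liver), the CAR gene Nr1i3 (−4.45), Ppara (−4.32) and Hnf4a (−6.37), while Ahr, the aryl hydrocarbon receptor gene, was 0.94 higher in lung (SE 0.12). Both epoxide hydrolases, which open the epoxides that P450 enzymes make, were higher in liver. Of all genes, 16.5% were higher and 25% lower in liver than in lung, and 15.4% were higher in liver than in forestomach. Genes with an unadjusted p under 0.05 at the high dose were counted for redox partners, haem supply, receptors and factors, and epoxide hydrolases. In lung there were 0 of 6, 2 of 9, 3 of 14 and 2 of 2, against 12.5% of all genes. The same counts were 2, 0, 2 and 1 for liver (against 8.37% of all genes), and 0, 1, 0 and 1 for forestomach (against 4.2%). The nearest to the threshold was Ephx1, microsomal epoxide hydrolase, in lung (0.41, SE 0.09, adjusted p = 0.0771).

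The ratios of the members varied more between mice of a group than those of other genes in liver and forestomach, and hardly more in lung. The median residual SD of members was 0.39 in liver, where that of all genes was 0.21. It was 0.29 against 0.21 in forestomach and 0.17 against 0.16 in lung. In the Cy5 and Cy3 channels alone the members' median was 0.27 and 0.31 in liver, 0.21 and 0.23 in lung, and 0.39 and 0.23 in forestomach. By these medians the reference channel varied at least as much in liver and lung, and the spread of the ratio is not that of the tissue RNA alone. By member, the Cy3 SD was the larger in 35 of 72 in liver, 46 in lung and 12 in forestomach. At or above the 90th percentile of all genes were 27 of 72 members in liver, 18 in forestomach and 12 in lung. In liver the widest were Cyp2b10 (1.05), Cyp4a14 (0.98), Cyp2g1 (0.81), Cyp3a16 (0.76) and Cyp2e1 (0.74). Cyp2b10 ran from 1.69 to 5.54 over the 19 livers. Members of a subfamily resemble each other in sequence, and the part of a neighbour's RNA in a probe's signal was not tested.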

How the data were processed

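The authors hybridized Cy5-labelled tissue RNA and Cy3-labelled reference RNA to Agilent 8x60K arrays and scanned them. Per the file headers, the deposited intensity values are uncorrected medians, over the pixels of a spot or of the area around it, from Feature Extraction 10.7.3.1 (lung and forestomach) or 11.0.1.1 (liver). The deposited log10 ratios of Cy5 over Cy3 were background-subtracted and dye-normalized by that software and served as an alternative. Log2 ratios that the authors normalized by LOWESS were also deposited and were not used. The number of arrays limits the precision.

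Here the log2 of Cy5 over Cy3 was taken from these medians and loess was applied to each array. Outlier spots were dropped and the remaining spots of 1 probe averaged. The tools were limma 3.58.1 with statmod 1.5.0, and data.table (version 1.17.8), run in R 4.3.3. Of 55681 probes 27267 had a gene name, found through RefSeq identifiers. The members took 92 probes, and 16 members had more than 1. The brightest probe stood for each gene. Each tissue was fitted in limma with its 4 groups, vehicle tissues in a fit of their own, and effects between tissues in a joint fit, two-sided, in place of the MAANOVA of the methods, with its thresholds (adjusted p of 0.05, fold change of 1.5). The fits were tested on simulated data.

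Same-numbered tissues come from the same mouse by the labels. The methods give 4 vehicle mice, whereas lung has 5, and all were used. Alternatives were normexp (offset 50), loess followed by Aquantile, centring on the median, the scanner log ratio, outlier spots kept, dim probes left out, other probes of a gene, slide and mouse as blocks, 2 groups fitted alone, limma with trend and robust, other thresholds and each mouse left out. Added after seeing the data were the Cy5 channel alone, bright arrays left out, and glandular or fat cell markers as a covariate. Named members are the 5 at each end at 50 mg/kg-bw/day among those well above background in 3 mice of either group, and the 5 widest gaps between tissues; others were chosen after their values were seen. The members and gene lists were chosen with earlier results of these data known. Lists were redox partners, haem supply, nuclear receptors and factors, epoxide hydrolases and cell type markers.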

Additional observations from a re-analysis of the deposited data

Results flagged for a closer look

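Of 268 groups of 4 or 5 mice tested over the named members, 24 held 1 mouse that stood apart from the rest of its group by Dixon's limit (6 of 100 in lung, 7 of 88 in liver and 11 of 80 in forestomach), and chance gives about 1 in 20. All values are log2 ratios.

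In liver, vehicle mouse 3, whose array lay on slide 7, was the lowest for 4 members, with 7.92 for Cyp2a12, 8.38 for Cyp2c54, 7.05 for Cyp2d40 and 6.44 for Cyp4f14. Cyp2d40 was also high in mouse 17 (7.88), Cyp3a25 in mouse 11 (10.39) and Cyp4f18 in mouse 14 (0.11). In forestomach, vehicle mouse 1, which had the lowest glandular marker mean, was the lowest for Cyp2c65 (0.61) and Cyp4v3 (0.13). Mouse 13 was the highest at the middle dose for 3 members known from liver, Cyp2a12 (1.51), Cyp2c29 (1.98) and Cyp3a25 (1.89), and mouse 6 at the low dose for Cyp2a4 (1.89) and Cyp2c29 (2.08). Cyp4f39 was high in vehicle mouse 5 (3.42) and Cyp2a12 in mouse 7 (0.28), and mouse 8, a bright array, was low for Cyp2j9 (1.84) and high for Cyp3a25 (0.11). In lung, Cyp4a12b was high in vehicle mouse 5 (2.52) and in mouse 13 (0.86), Cyp2s1 in mouse 8 (3.89), Cyp2c54 in mouse 17 (0.1, against −0.01 for the nearest mouse) and Cyp2c66 in mouse 18 (0.1), while Cyp4f15 was low in mouse 18 (1.81). Mice 8, 13 and 18 of lung were on bright arrays.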

How the results depend on the processing

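With p adjusted, no setting called a member at any dose, and directions in liver depended on the processing. Under the settings chosen at the start, other than leaving out mice, 195 of 204 counts stayed within 1.5 times the reported one and 544 of 550 values kept their direction and their side of the threshold. Leaving out each mouse kept all 310 counts and 954 of 957 values. Many of these counts were 0 both times, and a dose difference that was not called could not lose a call. The counts of members called ran from 0 to 0 for each dose and slope, from 4 to 5 higher in lung than in liver and 46 to 47 the other way, from 4 to 6 higher in forestomach than in liver and 47 to 49 the other way, and from 9 to 10 higher in lung than in forestomach and 11 to 14 the other way. The 3 values that lost their call were Cyp2b19 in forestomach against liver, which ran from 0.54 to 0.71 and was also under the fold threshold with normexp (0.51), median centring (0.46) and Cy5 alone (0.58).

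With a 1.2-fold limit and no adjustment of p (0.05), in place of 0 members there were 1 in lung at the middle dose, 1, 6 and 2 in liver at the low, middle and high dose, and 1 and 2 in forestomach at the low and middle dose. With slide as a block, 38 of all genes in place of 3 were called in lung at the middle dose and 107 in place of 30 at the high dose, none of them a member. In vehicle mice, 7 members in place of 4 were higher in lung than in liver with median centring, and 7 with the scanner log ratio. With dim probes left out, 2 in place of 5 were higher in forestomach than in liver, since fewer probes were tested. The differences at the high dose in liver turned for Cyp4f14 (0.0753) and Cyp2s1 (0.2089) with median centring, for Cyp2c39 (−0.14) and Cyp4a14 (−0.089) with the scanner log ratio, for Cyp2j5 without the bright arrays (0.0921), and in Cy5 alone for Cyp2e1 (−0.16), Cyp3a11 (0.0636) and Cyp4f14 (0.29). In forestomach Cyp2j9 turned in Cy5 alone (0.10) and Cyp4b1 with the fat cell covariate (−0.0403). The causes were not tested. Of the added alternatives, 45 of 45 counts and 131 of 138 values were kept. Aquantile leaves the log ratios as they are and gave no value of its own.

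With the mouse number as a replicate block, which pairs tissues of the same mouse, 5 members were higher in lung than in liver and 47 lower, 5 higher in forestomach than in liver and 49 lower, and 10 higher in lung than in forestomach and 13 lower. With mouse as a random block, 0, 0 and 0 members differed between tissues in their effect at the high dose (within-mouse correlation 0.0594). The block changed no call past the threshold of a dose. Dim probes limit the calls in lung and forestomach, where 27 and 24 of 72 members were well above background in every vehicle mouse.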
